A study of Mus musculus with 8 samples.

Results

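De novo pyrimidine and purine synthesis was followed through 10 genes, Cad, Dhodh, Umps and Ctps for pyrimidines and Ppat, Gart, Pfas, Paics, Atic and Impdh2 for purines, out of the 24460 genes counted in mouse embryonic fibroblast (MEF) cells. The genes were taken by name as enzymes of the pathway, and all 10 passed the filter on low counts. Wild-type MEFs were exposed in culture to RHPS4, a ligand of G-quadruplex (G4) DNA, and total RNA without nuclear ribosomal RNA was sequenced. The 0 µM and 2 µM doses have 3 libraries each and the 10 µM dose has 2, all from the same kind of cell grown in glucose, glutamine, pyruvate and serum, and the exposure time of these particular libraries is not given in the sources used here. The labels do not say whether libraries of a dose came from separate cultures, so p values measure the spread between these libraries, which may be technical.

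Pyrimidine rings are built before they are joined to ribose. CAD starts the route from glutamine, bicarbonate and aspartate, DHODH oxidizes dihydroorotate at the inner mitochondrial membrane and hands the electrons to ubiquinone of the respiratory chain, UMPS makes UMP, and CTPS turns UTP into CTP. Purine rings are built on ribose phosphate: PPAT commits the pathway, GART, PFAS and PAICS extend the ring, ATIC closes it to IMP, and IMPDH2 directs IMP to guanine nucleotides. GART and ATIC use one-carbon units carried by folate. Dividing cells lean on both routes for RNA, DNA and nucleotide sugars.

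Libraries held 10455965 to 26688121 counts in all, and the enzymes between 268 (Dhodh in the first 0 µM library) and 10742 (Paics in another 0 µM library). The first 0 µM library stood apart. It differed from the other 0 µM libraries by chi-squares of 15.4 and 20.2 per degree of freedom, whereas those differed from each other by 3.23, and it held the highest 0 µM level for 7 of the 10 enzymes, against 44.2% of all tested genes. The libraries carried their label as fibroblasts: all 10 fibroblast markers were tested, at summed levels of 9988 to 11270 CPM (counts relative to a library size scaled by the TMM method) at 0 µM, 9484 to 10580 at 2 µM and 9255 to 9491 at 10 µM. Pdgfrb, Col3a1 and Dcn fell at 2 µM and Pdgfrb and Col3a1 at 10 µM, both against 0 µM, and between the doses Pdgfrb fell while Pdgfra rose. The fibroblast marker Lum was low, with a mean of 0.996 CPM at 0 µM. Sums for other cells took only the markers that passed the filter and stayed low in every library. They were 1.25 to 2.64 CPM for epithelium (1 of 6 tested, Cdh1) and 2.73 to 4.58 for endothelium (3 of 5). Blood and macrophages had 6.12 to 10.2 (4 of 6) and muscle 1.45 to 2.66 (2 of 5). No tested member of these lists passed the test, and the globin genes Hbb-b1 and Hba-a1 had 0 counts throughout. The nerve and glia list, with 4 of 5 genes tested, summed to 45.0 to 59.8 CPM. Its gene Tubb3 was higher at 10 µM than at 0 µM (log2 fold change 1.42) and than at 2 µM (1.65), while Sox10 and Gfap had at most 18 counts. In bulk RNA fewer cells of a type and less RNA per cell cannot be told apart, and the part of these markers in the results below was not tested.

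The genes lie on 7 chromosomes of GRCm38, the assembly named mm10. Cad (chr5:31054780-31078479), Atic (chr1:71557150-71579631) and Impdh2 (chr9:108560286-108565584) are on the plus strand. Dhodh (chr8:109591343-109608673), Umps (chr16:33954782-33967038), Ctps (chr4:120539868-120570276), Gart (chr16:91621186-91646952) and Pfas (chr11:68985697-69008460) are on the minus strand. Ppat (chr5:76913249-76951578, minus) and Paics (chr5:76951307-76967509, plus) are neighbours that are read away from each other, with 5′ ends that overlap by 272 bases. All 250 bases before the start of either gene lie in annotated exons of the other. RefSeq promoter windows, 250 bases before to 50 after each start, were on hand for 8 of the 10 genes, in 9 windows of which 2 belong to Ctps. Dhodh and Pfas had none.

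Umps, the only enzyme past the test in each comparison of the fit with dose as the only factor, is shown with the bases before its start site. The stretch (chr16:33967039-33967288, minus strand, GRCm38.p6) is printed 5′ to 3′ with the GC box letters GGGCGG in capitals. This stretch also lies in exons of the antisense gene Gm15829.
Umps upstream: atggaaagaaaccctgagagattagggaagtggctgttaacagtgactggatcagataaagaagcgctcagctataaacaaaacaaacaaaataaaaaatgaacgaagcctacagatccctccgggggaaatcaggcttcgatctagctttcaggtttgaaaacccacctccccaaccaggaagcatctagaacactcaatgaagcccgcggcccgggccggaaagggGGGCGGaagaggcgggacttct
GGGCGG, searched on both strands, was found in 8 of the 9 windows, against 35.66% of 32851 promoter windows of the same length.

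The E-box CACGTG, which reads alike on both strands and is the letter sequence that MYC and MAX bind, was found in 3 of the 8 genes, Atic, Impdh2 and Paics, against 7.15% of all windows. The matches are printed with 10 bases on either side and the E-box in capitals, because MYC is a known regulator of this pathway.
Atic (chr1:71557139-71557164, plus strand): acctcggggtCACGTGgggtcgacac
Impdh2 (chr9:108560316-108560341, plus strand): gctcgataagCACGTGgttacccagc
Paics (chr5:76951089-76951114, plus strand): cctcggaaagCACGTGgagggacctg
The first base of the E-box lay 7, 110 and 203 bases before the start site in this order. CCAAT was found in 4 genes (37.41% of all windows), the NRF1 motif, a pair of GCGC with 2 bases between them, in 2 (6.23%) and the ATF4 letters TGATGNAA in 0 (3.97%), each on both strands.

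Since RHPS4 binds G4 structures, windows were also searched on both strands for 4 runs of at least 3 G with 1 to 7 bases between them. Such letters were found in 4 of the 8 genes, Atic, Cad, Ctps and Impdh2, against 18.6% of all windows. The G-rich strand is printed with the runs in capitals.
Atic (chr1:71557131-71557157, plus strand): GGGGcGGGacctcGGGGtcacgtGGGG
Cad (chr5:31054727-31054751, minus strand): GGGGcGGGGccGGGcacgtcaGGGG
Ctps (chr4:120570291-120570315, plus strand): GGGcGGGGagaggcGGGcccaGGGG
Ctps (chr4:120570378-120570400, plus strand): GGGtGGGtctcGGGagttgtGGG
Impdh2 (chr9:108560263-108560282, plus strand): GGGatgcGGGGaGGGGtGGG
The G4 letters shared bases with a GC box in Atic, Cad and Ctps and with the E-box in Atic, and the other motifs did not overlap one another. A match is a description of letters, and no structure or binding was measured at these places. The results below do not separate the genes with such letters from the others, and no comparison between these small groups was made.

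In untreated MEFs the enzymes ranged in level per length of mRNA from 177 ± 15.0 CPM per kb (SD, n = 3) for Paics to 12.1 ± 1.39 for Dhodh. Impdh2 (118 ± 13.5), Ctps (73.2 ± 5.71), Atic (47.1 ± 4.73) and Cad (45.0 ± 4.86) followed Paics, and then came Gart (32.0 ± 0.851), Umps (28.9 ± 2.77), Pfas (27.8 ± 1.06) and Ppat (23.9 ± 2.52), all in CPM per kb at 0 µM. Among neighbours in this order, the libraries of Atic and Cad, of Gart and Umps, of Umps and Pfas and of Pfas and Ppat overlapped, and the other neighbours did not. Ppat, for the first enzyme of the purine route, was the lowest of the 6 purine mRNAs in this unit. Part of the level of Impdh2 is uncertain, as 34.92% of its 75-base stretches also occur in the pseudogene Impdh2-ps.

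The study set a low and a high concentration of RHPS4 against untreated MEFs. At 2 µM all 10 enzymes had a fold change above 1 against 0 µM, and 3 of them, Umps, Ctps and Gart, rose at an adjusted p under 0.05. At 10 µM all 10 had a fold change below 1 against 0 µM, and 1 of them, Umps, fell. Between the doses 7 fell from 2 µM to 10 µM, and Cad, Paics and Impdh2 did not pass the test. The first and the second comparison share the 0 µM libraries, and the third uses the 2 µM libraries of the first and the 10 µM libraries of the second.

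**Figure D1:**
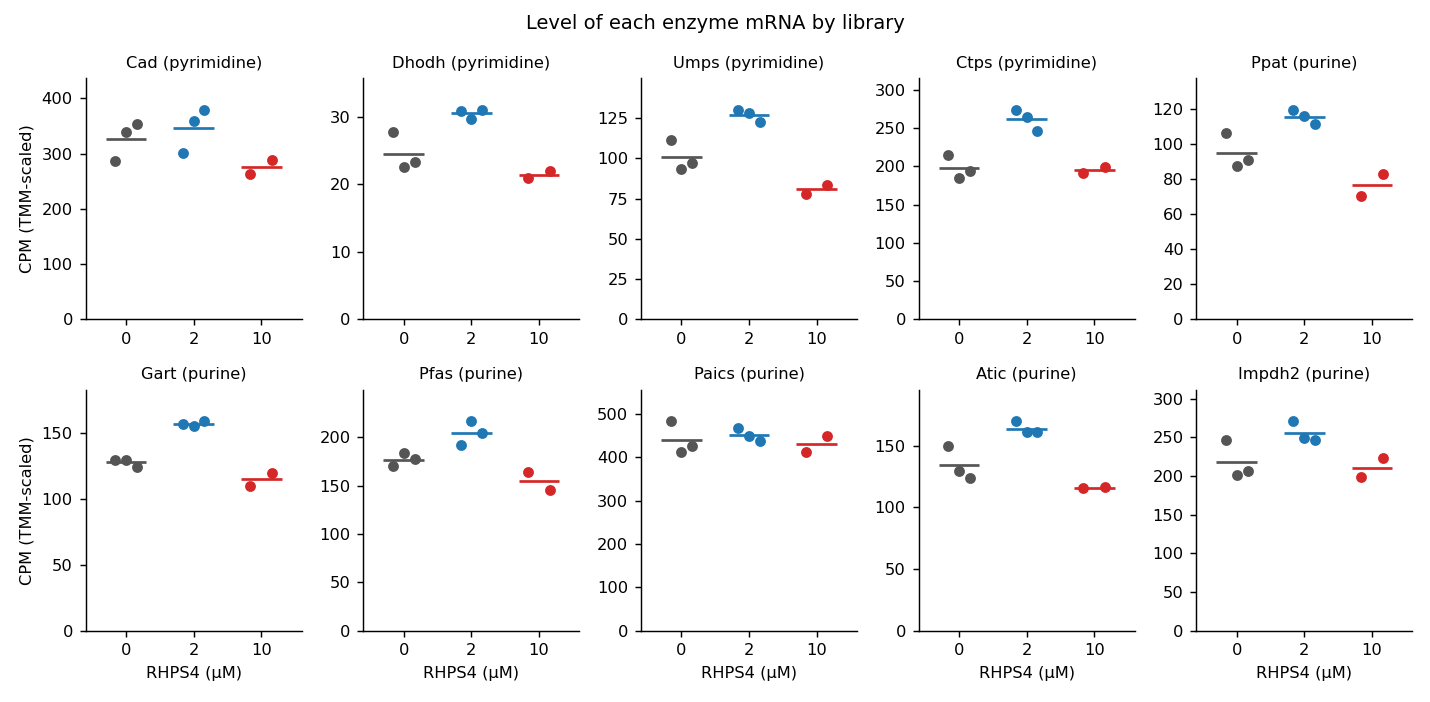
Level of each enzyme mRNA in CPM (vertical axis, from 0, a separate scale in each panel) at 0, 2 and 10 µM RHPS4 (horizontal axis), with a point for each library and a line at the mean of the dose. In 7 panels, all but Cad, Paics and Impdh2, every 2 µM point lies above every 0 µM point, and in 9 panels, all but Paics, both 10 µM points lie below every 2 µM point.

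Cad, the enzyme that starts pyrimidine synthesis, had 286, 339.8 and 353 CPM in the 0 µM libraries, 301.5, 359 and 379 at 2 µM, then 263 and 288 at 10 µM. The first library of each dose was its lowest, and the 0 and 2 µM libraries overlapped. The log2 fold change was 0.09 (standard error, SE, 0.102, adjusted p = 0.672) at 2 µM and −0.25 (SE 0.115, adjusted p = 0.181) at 10 µM against 0 µM. From 2 µM to 10 µM, where the libraries did not overlap, it was −0.33 (SE 0.115, adjusted p = 0.0587). With the replicate number as a block, the last value was −0.26 and passed (adjusted p = 0.0335).

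Dhodh, the mitochondrial enzyme of the route, had 27.8, 22.6 and 23.4 CPM at 0 µM, 30.9, 29.8 and 31.1 at 2 µM, then 20.9 and 22.0 at 10 µM. All 2 µM libraries were above, and both 10 µM libraries below, every 0 µM library. Against 0 µM the log2 fold changes of 0.33 (SE 0.0925, adjusted p = 0.0716) and −0.18 (SE 0.105, adjusted p = 0.276) did not pass. From 2 to 10 µM Dhodh fell by 0.51 on the log2 scale (SE 0.106, adjusted p = 0.00585).

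Umps, whose product makes UMP from orotate, had 112, 93.5 and 97.0 CPM at 0 µM, 130.2, 128 and 123 at 2 µM, then 77.8 and 83.5 at 10 µM. The ranges of the 3 doses did not overlap. Umps rose at 2 µM (log2 fold change 0.34, SE 0.0792, adjusted p = 0.0394), fell at 10 µM against 0 µM (−0.32, SE 0.0897, adjusted p = 0.0375) and fell from 2 to 10 µM (−0.66, SE 0.0904, adjusted p = 0.000624). The rise at 2 µM had an adjusted p of 0.0515 with the replicate block, and the fall against 0 µM did not pass in a fit of those doses alone (adjusted p = 0.0828). Gm15829, on the opposite strand, shares 4.17% of the 75-base stretches of Umps.

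Ctps, which makes CTP, had 215, 185 and 194 CPM at 0 µM, 274, 264.5 and 246 at 2 µM, then 191 and 199 at 10 µM. It had the largest rise of the enzymes at 2 µM, with a log2 fold change of 0.40 (SE 0.0762, adjusted p = 0.0188). At 10 µM its libraries lay within the range of the 0 µM libraries, with a log2 fold change of −0.02 (SE 0.0852, adjusted p = 0.899). Between the doses it fell by 0.42 on the log2 scale (SE 0.086, adjusted p = 0.00545).

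Ppat, which commits ribose phosphate to purines, had 106, 87.6 and 90.9 CPM at 0 µM, 119, 116 and 111 at 2 µM, then 70.1 and 83.0 at 10 µM. The doses did not overlap. The log2 fold change was 0.29 at 2 µM (SE 0.0908, adjusted p = 0.102) and −0.31 at 10 µM (SE 0.103, adjusted p = 0.0701) against 0 µM, and neither passed. From 2 to 10 µM Ppat fell by 0.59 (SE 0.104, adjusted p = 0.00238).

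Gart, whose protein carries out 3 of the early steps and takes up a one-carbon unit, had 129.6, 129.7 and 124 CPM at 0 µM, 157, 155 and 158.5 at 2 µM, then 109.8 and 119.7 at 10 µM. The doses did not overlap. Gart rose at 2 µM (log2 fold change 0.30, SE 0.0648, adjusted p = 0.0319), and its change at 10 µM against 0 µM did not pass (−0.15, SE 0.0729, adjusted p = 0.184). Between 2 and 10 µM it fell by 0.45 (SE 0.0734, adjusted p = 0.00158). The antisense gene Gm15964 shares 13.43% of the 75-base stretches of Gart.

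Pfas, for the glutamine-using enzyme that acts between the steps of GART, had 170.0, 183.5 and 177 CPM at 0 µM, 192, 216 and 204 at 2 µM, then 164 and 146 at 10 µM. Its doses did not overlap either. Against 0 µM the log2 fold changes were 0.21 (SE 0.0747, adjusted p = 0.147) and −0.19 (SE 0.084, adjusted p = 0.156). From 2 to 10 µM it fell by 0.40 (SE 0.0845, adjusted p = 0.00696). Without the second 10 µM library the value was −0.35 (adjusted p = 0.0536), in a fit that leaves 1 library at 10 µM and takes its spread from the other doses.

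Atic, which closes the purine ring with a one-carbon unit, had 149, 129.5 and 124 CPM at 0 µM, 169.5, 161 and 160.6 at 2 µM, then 115.6 and 116.1 at 10 µM. Here too each dose held its own range. The log2 fold changes against 0 µM were 0.29 at 2 µM (SE 0.0784, adjusted p = 0.0621) and −0.21 at 10 µM (SE 0.0883, adjusted p = 0.144). It fell by 0.50 from 2 to 10 µM (SE 0.0889, adjusted p = 0.00271).

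Paics, whose enzyme carboxylates the ring and adds aspartate to it, had the smallest log2 fold change of the purine genes in each comparison. It had 483, 412.5 and 426 CPM at 0 µM, 468, 449.8 and 437 at 2 µM, then 412 and 450.0 at 10 µM, and all doses overlapped. Its log2 fold changes were 0.04 (SE 0.0784, adjusted p = 0.828), −0.03 (SE 0.0877, adjusted p = 0.847) and −0.07 (SE 0.0878, adjusted p = 0.622) at 2 against 0, 10 against 0 and 10 against 2 µM. Impdh2, the enzyme that limits guanine nucleotide supply, had 247, 202 and 206.5 CPM at 0 µM, 270.5, 249 and 247 at 2 µM, then 198 and 223 at 10 µM. The first 0 µM library of Impdh2 reached into the 2 µM range. In the same order its log2 fold changes were 0.23 (SE 0.0901, adjusted p = 0.179), −0.05 (SE 0.101, adjusted p = 0.782) and −0.28 (SE 0.101, adjusted p = 0.0702).

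**Figure D2:**
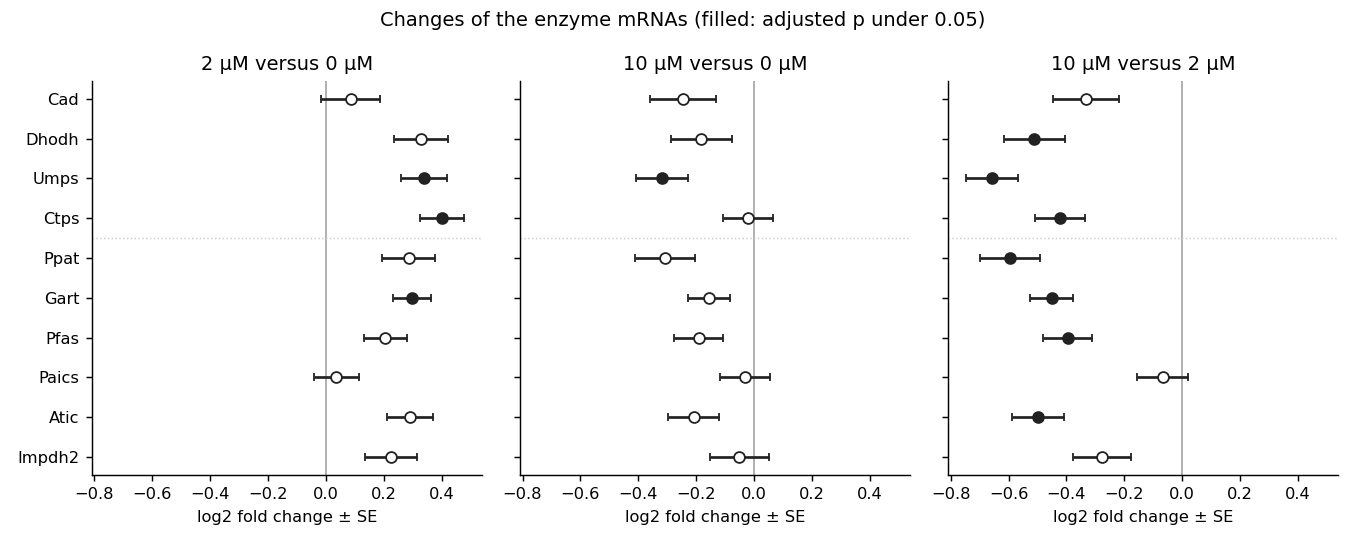
Log2 fold change with its SE (horizontal axis) for each enzyme (rows; pyrimidine above the dotted line, purine below it) in the 3 comparisons, from edgeR's fit over 8 libraries. Filled points passed an adjusted p of 0.05: 3 at 2 against 0 µM, 1 at 10 against 0 µM and 7 at 10 against 2 µM, and Paics lies nearest to 0 in the first and the third panel.

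Counted over the 10 enzymes, 3 rose and 0 fell at 2 µM against 0 µM, where 1.51% of the 14296 tested genes rose and 2.65% fell. The median log2 fold change of the enzymes was 0.29, against −0.01 for all tested genes, with 0.33 for the pyrimidine and 0.26 for the purine genes. In 7 of the 10 every 2 µM library lay above every 0 µM library, as in 12.7% of tested genes. Differentially expressed genes (DEGs), which needed more than a 1.5-fold change and an adjusted p below 0.01, were 0 of the 10 and 0.497% of tested genes. DESeq2 also called 0. An unadjusted p under 0.05 in edgeR's test was met by 8 of the 10 and by 3046 of the 14296 tested genes. With the replicate number as a block 2 rose, Ctps and Gart, where 164 of all tested genes rose and 312 fell. With scaling to total counts alone 8 rose, where 1065 of all tested genes rose and 302 fell against 216 and 379. Without the first 0 µM library 7 of the 10 enzymes rose, where 1116 of 14629 tested genes rose. Without any 1 of the second and the third 0 µM and the first and second 2 µM libraries the count was 0. Without the third 2 µM library it was 1. Over all tested genes 21 to 32 rose in the former fits and 87 in the latter.

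At 10 µM against 0 µM, 0 enzymes rose and 1 fell, where 6.81% of tested genes rose and 7.11% fell. The median log2 fold change was −0.19, against 0.02 for all tested genes, with −0.21 for the pyrimidine and −0.17 for the purine genes. Both 10 µM libraries lay below every 0 µM library for 6 of the 10, Dhodh, Umps, Ppat, Gart, Pfas and Atic, as in 20.0% of tested genes. DEGs numbered 0 of 10 against 3.09% of tested genes, and 0 of 10 with DESeq2. An unadjusted p under 0.05 in edgeR's test was met by 4 of the 10 and by 4205 of the 14296 tested genes. Without the first 0 µM library 2 of the 10 fell, Umps and Cad (−0.35, adjusted p = 0.0307), where 1718 of 14629 tested genes fell. Without the third 0 µM, the first 2 µM or the second 2 µM library, 522, 916 and 724 of all tested genes fell. In each of these fits the count of enzymes was 0. It was also 0 without either 10 µM library, where the 1 library left at that dose is assumed to vary like those of the other doses. Scaling to total counts alone moved the median of all tested genes to 0.231, with 3766 genes risen and 327 fallen against 974 and 1017, turned the sign of 7 of the 10 and left 0 past the test. The log2 fold changes of all 10 were below the median of all genes under either scaling. Rescaling shifts all genes by nearly the same amount, so this position could hardly have changed and adds no support. RLE factors and TMM over nuclear genes turned no sign of the 10.

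Between 2 and 10 µM the count was 7 of 10 fallen, where 11.9% of tested genes fell and 11.5% rose. Both 10 µM libraries lay below every 2 µM library in 9 of the 10, as in 24.9% of tested genes. The median log2 fold change was −0.44, against 0.03 for all tested genes, with −0.47 for the pyrimidine and −0.42 for the purine genes. Umps and Ppat, with 0.634 and 0.663 of their 2 µM level, were DEGs, which 5.51% of tested genes were. Leaving out the first or second 2 µM or the first 10 µM library left 1 DEG, and scaling to total counts alone left 0, where 2832 of all tested genes rose and 774 fell against 1646 and 1700.

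The neighbours Ppat and Paics were set against each other within each library, where scaling plays no part. The log2 ratio of Ppat to Paics counts was −2.18, −2.24 and −2.23 in the 0 µM libraries, −1.97, −1.95 and −1.98 at 2 µM, then −2.55 and −2.44 at 10 µM. The doses did not overlap: the ratio was highest at 2 µM and lowest at 10 µM. It differed by 0.25 at 2 µM against 0 µM (pooled SD 0.022), with a two-sided exact permutation p of 0.1, which is the lowest that 3 libraries against 3 allow. At 10 µM the difference was −0.28 against 0 µM (pooled SD 0.053) and −0.53 against 2 µM (pooled SD 0.048), both at an exact permutation p of 0.2, the lowest for 3 against 2. With 6 such tests the adjusted value was 0.24 for each. Ppat and Paics share 4.41% and 5.97% of their 75-base stretches with each other, and whether the counting used strand is not stated.

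**Figure D3:**
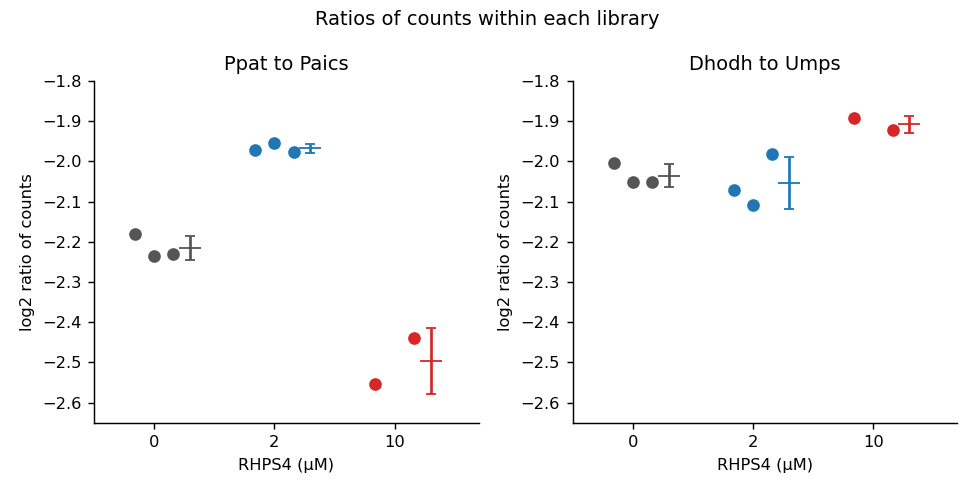
Log2 ratio of Ppat to Paics counts (left) and of Dhodh to Umps counts (right) in each library (points) at 0, 2 and 10 µM RHPS4, with the mean and SD of each dose beside the points; both vertical axes run over the same range and do not start at 0. On the left the 3 doses hold separate ranges, and on the right the 0 and 2 µM libraries overlap.

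The mitochondrial step was compared with the next in the same way. The log2 ratio of Dhodh to Umps was −2.00, −2.05 and −2.05 at 0 µM, −2.07, −2.11 and −1.98 at 2 µM, then −1.89 and −1.92 at 10 µM. The 0 and 2 µM libraries overlapped, with a difference of −0.02 (pooled SD 0.05, exact permutation p = 0.8, adjusted 0.8). Both 10 µM libraries lay above all others, by 0.13 against 0 µM (pooled SD 0.026) and 0.15 against 2 µM (pooled SD 0.055), at the smallest exact permutation p of 0.2 and an adjusted value of 0.24. Of 10 enzymes that pass electrons to ubiquinone, 1 fell from 2 to 10 µM, Dhodh, and 1 rose, Sqrdl, which oxidizes sulfide (0.48, adjusted p = 0.00799), shares near the 11.9% and 11.5% of all tested genes. At 10 µM against 0 µM Sdha, the flavoprotein of succinate dehydrogenase, fell (−0.37, adjusted p = 0.0269) and Sqrdl rose (0.39, adjusted p = 0.0288), and 0 of 10 passed at 2 µM. The list's medians were −0.06, 0.13 and 0.12 at 2 against 0, 10 against 0 and 10 against 2 µM.

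The genes around the routes were described from lists, whose counts are to be read beside those of all tested genes. Of these 1.51% rose and 2.65% fell at 2 µM, and 6.81% rose and 7.11% fell at 10 µM against 0 µM. From 2 to 10 µM 11.5% rose and 11.9% fell. Their median log2 fold changes were −0.01, 0.02 and 0.03 in this order. Of 18 other nucleotide-forming enzymes, 0 passed at 2 µM, 1 fell at 10 µM against 0 µM, and 6 fell and 1 rose from 2 to 10 µM, with medians of 0.12, −0.15 and −0.23. Adsl, which acts after PAICS and again in the making of AMP, had log2 fold changes of 0.25 (adjusted p = 0.16) at 2 µM and −0.20 (adjusted p = 0.245) at 10 µM, and fell from 2 to 10 µM (−0.44, adjusted p = 0.0124). Gmps, which makes GMP after IMPDH2, had 0.21 (adjusted p = 0.106) and −0.15 (adjusted p = 0.196), and fell between the doses (−0.36, adjusted p = 0.00615). The adenylate kinase Ak4 fell between the doses as well (−0.56, adjusted p = 0.00147) and also fell against 0 µM (−0.75, adjusted p = 0.000344).

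Deoxynucleotide synthesis, which feeds DNA replication, counted 0 of 10 past the test at 2 µM, 1 risen and 2 fallen at 10 µM against 0 µM, and 1 risen and 7 fallen from 2 to 10 µM, with medians of 0.23, −0.24 and −0.45. Rrm2 and Rrm1, the ribonucleotide reductase subunits of dividing cells, fell at 10 µM against 0 µM (−0.42, adjusted p = 0.012, and −0.28, adjusted p = 0.039). Rrm2b, the subunit that p53 induces, rose (0.70, adjusted p = 0.000926). From 2 to 10 µM Rrm2 (−0.65, adjusted p = 0.000721) and Dctd, the dCMP deaminase (−0.54, adjusted p = 0.0026), fell and Rrm2b rose (0.69, adjusted p = 0.000745).

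Among 15 genes of salvage and transport, 0 passed at 2 µM, 3 rose and 4 fell at 10 µM against 0 µM, and 3 rose and 6 fell from 2 to 10 µM, with medians of 0.07, −0.10 and −0.20. Slc29a1, the equilibrative nucleoside transporter, fell in both (−0.62, adjusted p = 0.00131, and −0.59, adjusted p = 0.00114), and Cda, the cytidine deaminase, fell against 0 µM (−0.52, adjusted p = 0.00833). Tk1, the thymidine kinase of S phase, fell by 0.61 between the doses (adjusted p = 0.000856), as did the uridine-cytidine kinase Uck2 (−0.67, adjusted p = 0.00504). Its relative Uckl1 rose at 10 µM against 0 µM (0.62, adjusted p = 0.00406). Of 14 genes of nucleotide breakdown 12 were tested, and 0 passed at 2 µM, 1 rose at 10 µM against 0 µM, and 1 rose and 1 fell from 2 to 10 µM, with medians of −0.03, −0.05 and 0.19. Xdh, which oxidizes purines to uric acid, rose at 10 µM from 73.7 ± 6.17 to 168 ± 0.966 CPM (log2 fold change 1.18, adjusted p = 1.76e-05). It was also higher than at 2 µM (0.91, adjusted p = 7.67e-05), whereas Ampd2, the AMP deaminase, was lower (−0.26, adjusted p = 0.0307).

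Of 15 genes that supply one-carbon units, glycine and serine, 1 rose at 2 µM, 6 rose and 1 fell at 10 µM against 0 µM, and 6 rose and 4 fell from 2 to 10 µM, with medians of 0.19, 0.19 and 0.20. The mitochondrial enzymes Aldh1l2 (1.75, adjusted p = 4.22e-07) and Mthfd2 (0.85, adjusted p = 7.88e-05) and the serine-forming Psph (1.45, adjusted p = 5.02e-06) rose at 10 µM against 0 µM. Mthfd1, the cytosolic enzyme that forms the folate GART and ATIC use, rose at 2 µM (0.25, adjusted p = 0.0474), fell at 10 µM against 0 µM (−0.36, adjusted p = 0.00698) and fell by 0.61 between the doses (adjusted p = 0.000223). Of 12 genes that supply glutamine and aspartate, 0 passed at 2 µM, 5 rose and 0 fell at 10 µM against 0 µM, and 4 rose and 3 fell from 2 to 10 µM, with medians of 0.11, −0.06 and 0.00. Gpt2 (1.73, adjusted p = 4.64e-07), Asns (1.16, adjusted p = 9.71e-06) and Got1 (0.49, adjusted p = 0.00296) rose at 10 µM against 0 µM. Asns uses up aspartate and glutamine to make asparagine, and Got1 is the cytosolic aspartate aminotransferase.

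**Figure D4:**
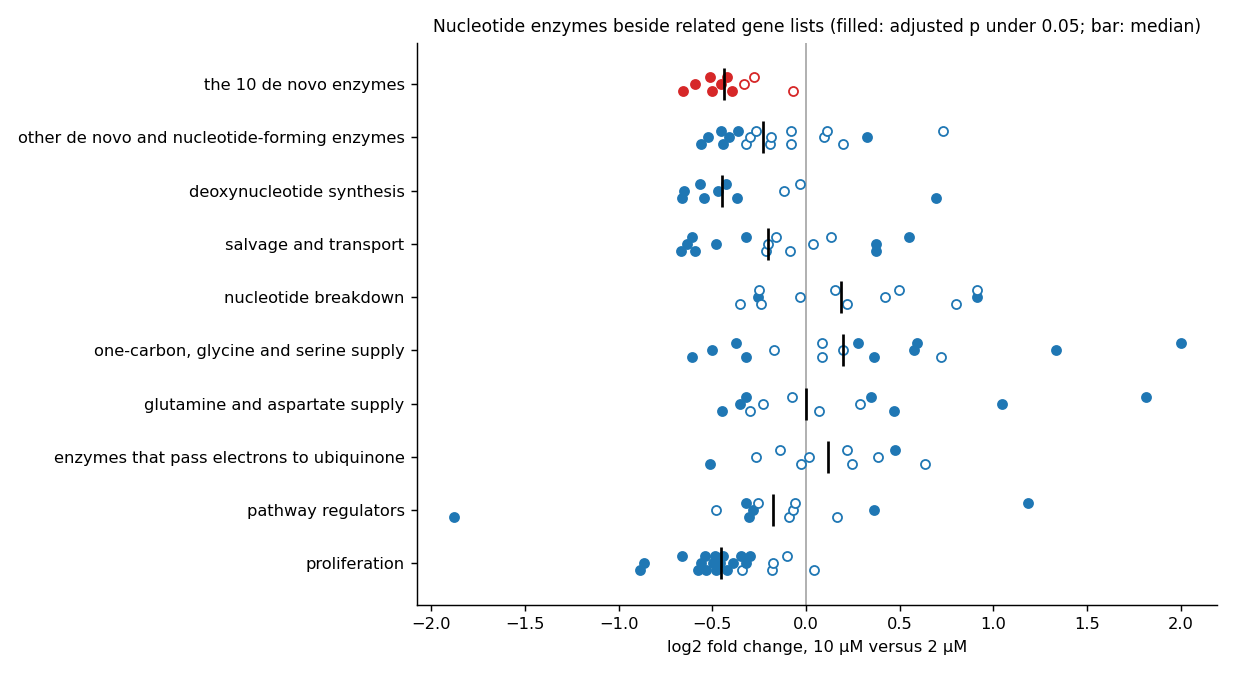
Log2 fold change from 2 to 10 µM RHPS4 (horizontal axis) of each tested gene (points, spread vertically for legibility) in the 10 de novo enzymes (red) and 9 related lists (blue), with the median of each list as a bar and filled points for an adjusted p under 0.05. The medians of the enzymes (−0.44), deoxynucleotide synthesis (−0.45) and proliferation (−0.45) lie to the left of the others, and the one-carbon list reaches from −0.61 to 2.00.

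Among 12 regulators of the routes, 1 fell at 2 µM, 2 rose and 2 fell at 10 µM against 0 µM, and 2 rose and 4 fell from 2 to 10 µM, with medians of 0.04, −0.17 and −0.17. Myc, a known activator of nucleotide genes, had 33.8 ± 6.82, 33.7 ± 5.55 (SD, n = 3) and 38.0 ± 7.0 CPM (SD, n = 2) at 0, 2 and 10 µM, and its log2 fold changes of −0.02 (adjusted p = 0.968), 0.15 (adjusted p = 0.608) and 0.17 (adjusted p = 0.541) did not pass. Mycn, at 2.57 ± 0.0355, 2.89 ± 0.535 (SD, n = 3) and 0.803 ± 0.186 CPM (SD, n = 2) in the same order, fell at 10 µM (−1.68 against 0 µM, adjusted p = 0.00249, and −1.88 against 2 µM, adjusted p = 0.000834). Mxd1, which competes with MYC for MAX, fell at 2 µM (−0.58, adjusted p = 0.0152). It rose at 10 µM against 0 µM (0.60, adjusted p = 0.0038) and against 2 µM (1.18, adjusted p = 4.55e-05). The part of Mxd1 in the enzymes' changes was not tested. Atf4, the transcription factor of the amino acid response, rose at 10 µM (0.56 against 0 µM, adjusted p = 0.00326, and 0.36 against 2 µM, adjusted p = 0.0179) and did not pass at 2 µM (0.19, adjusted p = 0.216). Prkaca fell from 2 to 10 µM (−0.32, adjusted p = 0.0102).

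Of 22 genes of proliferation, 1 rose at 2 µM, 11 fell at 10 µM against 0 µM, and 17 fell from 2 to 10 µM, with medians of 0.16, −0.32 and −0.45. Ccne1, the cyclin of S phase entry, rose at 2 µM (0.32, adjusted p = 0.0479) and fell at 10 µM against 0 µM (−0.57, adjusted p = 0.00258) and against 2 µM (−0.89, adjusted p = 9.81e-05). Cdc6 and Mcm4, which license replication origins, fell at 10 µM against 0 µM (−0.63, adjusted p = 0.000991, and −0.50, adjusted p = 0.00135) and against 2 µM (−0.87, adjusted p = 8.28e-05, and −0.58, adjusted p = 0.000373). The list summed to 5842 ± 312 (SD, n = 3), 6281 ± 134 (SD, n = 3) and 4855 ± 75.3 CPM (SD, n = 2) at 0, 2 and 10 µM, and the 10 enzymes to 1842 ± 74.2, 2113 ± 15.7 and 1676 ± 76.4. The part of proliferation in the enzymes' changes was not tested.

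**Figure D5:**
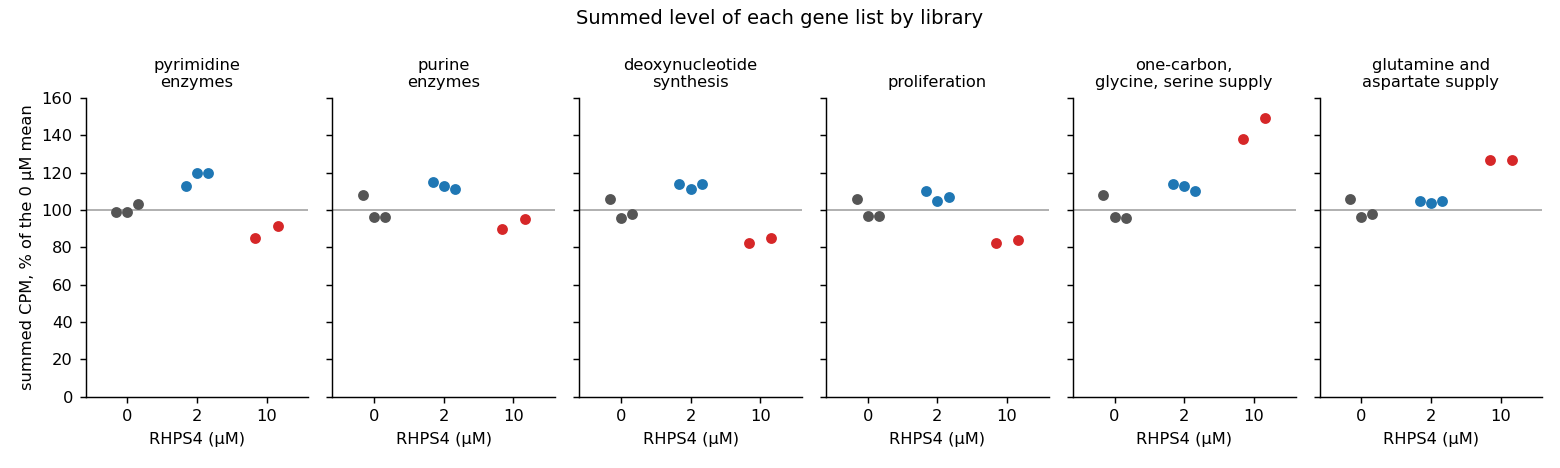
Summed CPM of each list in each library (points), as a percentage of the list's mean at 0 µM (grey line at 100), at 0, 2 and 10 µM RHPS4. The pyrimidine and purine enzymes averaged 118% and 113% at 2 µM and 88.2% and 92.5% at 10 µM, and proliferation genes 108% and 83.1%. At 2 and 10 µM the one-carbon list averaged 112% and 144%, and the glutamine and aspartate list 104% and 127%. A few genes can carry a sum: from 0 to 10 µM Gpt2 went from 69.2 to 229.3 CPM and Asns from 129.0 to 287.5. In that comparison 7 of the 12 glutamine and aspartate genes did not pass, and their list's median log2 fold change was −0.06.

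Of 13 mRNAs of mtDNA, the genome whose transcripts the study followed, 11 were tested, and 7 fell at 2 µM, 11 at 10 µM against 0 µM, and 4 from 2 to 10 µM, with medians of −1.20, −1.91 and −0.94. Of these, COX2, COX3, ATP6 and ND3, singled out after their values were seen, had means of only 0.855 to 2.00 CPM at 0 µM and 0.158 to 0.579 CPM at 10 µM, where 3 counts correspond to 0.112 to 0.287 CPM, and the first and the last median are the values of COX2 and COX3. CYTB fell by 1.95 at 2 µM (adjusted p = 0.000217) and ND6 by 0.99 (adjusted p = 0.00141), while ND1 had a log2 fold change of −0.49 (adjusted p = 0.0877). At 10 µM against 0 µM they fell by 1.91 (adjusted p = 5.33e-05), 2.00 (adjusted p = 6.66e-06) and 1.89 (adjusted p = 5.8e-05). mtDNA features held 13.2 to 14.4% of all counts at 0 µM, 7.40 to 8.26% at 2 µM and 5.33 to 6.32% at 10 µM.

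Over the 8 libraries, the profile of each route, taken as the median of its genes' log2 CPM centred on 0 µM, was matched with every tested gene by root mean square distance. Closest to the 4 pyrimidine genes among other genes were Abce1 (0.0386), Nbn (0.0432) and Med22 (0.0439), and closest to the 6 purine genes were Kpna2 (0.0229), Tcp1 (0.0319) and Prim1 (0.032). The enzymes helped to set these profiles, so their own places by distance among the 14296 genes are a description. They were 1 for Dhodh, 16 for Umps, 401 for Ctps and 3424 for Cad in the pyrimidine route. In the purine route Atic took place 13, Gart 144, Impdh2 220, Ppat 500, Pfas 1068 and Paics 2111.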

How the data were processed

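RNA-Seq of MEFs at 0, 2 and 10 µM RHPS4 gave 8 libraries. The authors trimmed the reads (FastQC, Trim Galore, cutadapt), aligned them to mm10 with STAR 2.5.2a and deposited featureCounts counts per gene, as whole numbers without normalization. Annotation and strand setting of the counting are not given in the sources used here. The 10 genes and all lists were chosen with earlier results of these data known.

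Counts were fitted in R 4.3.3 with edgeR 4.0.16 (TMM, filterByExpr, glmQLFit, glmQLFTest) over all 8 libraries with dose as the only factor, and p was adjusted by Benjamini-Hochberg over 14296 tested genes. Genes rose or fell at an adjusted p under 0.05, and DEGs followed the thresholds of the study's methods. Standard errors are the log2 fold change over the root of F. The floor of 3 counts was 0.112 to 0.287 CPM, for counting error only. No 2 libraries agreed within sampling noise (smallest chi-square per degree of freedom 3.23). For ratios a pseudocount of 0.5 was used, with two-sided exact tests by permutation of libraries. Lengths are the merged exons of GENCODE M21, and promoters come from RefSeq (GRCm38.p6).

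Replicate numbers come from the labels. Deviations from the group means were taken over genes with at least 10 counts in every library. They correlated by 0.429, 0.146 and 0.374 between 0 and 2 µM libraries of the same number. For different numbers the values ran from −0.39 to 0.135, the latter for the second 0 µM and the third 2 µM library. Numbers 1 and 3 thus paired these doses, and number 2 hardly did. The main fit and the ratio tests took no account of the numbers. The correlations were −0.34 and −0.31 between 0 and 10 µM and −0.042 and −0.147 between 2 and 10 µM.

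Named were the 10 enzymes, Myc, Atf4, Adsl, Gmps, CYTB, ND1 and ND6, up to 3 genes per list and comparison with the smallest p among those past the test, and the 3 genes nearest to each route's profile. Some genes that this rule takes are not reported here. Alternatives were RLE factors, TMM over nuclear genes, total counts, no filter, DESeq2 1.42.0, a minimum of 10 counts in each library, only the 2 groups compared, a replicate block, each library left out, and for ratios a pseudocount of 5. The fit was tested on simulated counts. Figures and tables used Python 3.11.15, numpy 2.4.6, scipy 1.17.1, pandas 2.3.3 and matplotlib 3.10.9.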

Additional observations from a re-analysis of the deposited data

How the results depend on the processing

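The 7 enzymes fallen from 2 to 10 µM stayed within 1.5 times that number under every alternative. Total-count scaling moved the median log2 fold change of all genes to 0.0677, 0.231 and 0.162 (2 against 0, 10 against 0, 10 against 2 µM). It gave 8 enzymes past the test at 2 µM, 0 at 10 µM against 0 µM and 0 DEGs between the doses, and turned the sign at 10 µM against 0 µM for Dhodh (0.034), Ctps (0.198), Gart (0.0624), Pfas (0.0245), Paics (0.188), Atic (0.0103) and Impdh2 (0.169), and for Paics between the doses (0.0675). The count at 10 µM against 0 µM was 2 without a filter and with DESeq2 and 0 with only the 2 groups compared. Without a filter 723 of all 23612 tested genes rose and 1253 fell. With DESeq2 580 of 12189 rose and 1200 fell, and with only the 2 groups 633 of 14383 rose and 598 fell. With the replicate block the counts were 2, 1 and 8. Of all 14296 tested genes 164 rose and 312 fell with the block at 2 µM. At 10 against 0 µM 726 rose and 851 fell, and at 10 against 2 µM 1518 rose and 1641 fell. Umps at 2 µM (0.34, adjusted p = 0.0515) and Cad between the doses were the only calls on the enzymes that the block changed.

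With each library left out in turn the counts ranged from 0 to 7 at 2 µM and from 0 to 2 at 10 µM against 0 µM. The DEGs between the doses ranged from 1 to 2. Over all tested genes 21 to 1116 rose at 2 µM in these fits. The ratio of Ppat to Paics differed by −0.34 to −0.22 at 10 against 0 µM and by −0.59 to −0.47 at 10 against 2 µM. That of Dhodh to Umps at 2 µM ran from −0.0545 to 0.009 and was positive without the second 2 µM library. Signs also turned for Paics at 2 µM, which ran from −0.0023 without the second 0 µM library to 0.114 without the first. At 10 µM against 0 µM they turned for Ctps (−0.0851 to 0.0172), Paics (−0.125 to 0.0145) and Impdh2 (−0.166 to 0.0216), each positive without the first 0 µM library, and Paics (0.0009) and Impdh2 (0.0032) also without the first 10 µM library. The cause of these shifts was not tested. A fit without either 10 µM library leaves 1 at that dose, which is assumed to vary like the others.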
